A study of Mus musculus with 3 samples.

Results

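The 10 genes described here, Hspa5, Hsp90b1, Calr, Pdia4, Dnajb9, Sdf2l1, Creld2, Manf, Herpud1 and Xbp1, encode chaperones and other proteins of the endoplasmic reticulum (ER) together with a transcription factor of the unfolded protein response. They were taken from a list of names chosen with earlier results of these data known. All 10 were found among the 20716 gene symbols of the CBTi-seq table and among the 55294 genes of the 3' tables. The measurements come from 3 samples of L929 cells, a mouse fibroblast line from connective tissue. Rrm2, a subunit of ribonucleotide reductase, was knocked down in the knock group and not in the control group. Each group was profiled with CBTi-seq and with a second method, called 3' after the transcript end it targets. The CBTi-seq sample is 1 table with 10 columns named knock and 10 named control, and the 3' libraries, labelled knock and labelled control, are 1 sample each with 8 columns. The sources used here do not give the agent of the knockdown, its duration or the number of cultures. All groups share the cell line and the protocol text, in which single cells were drawn into a capillary. The tables do not say that a column is 1 cell, so a range over columns may or may not be a range over cells.

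Secreted and membrane proteins fold in the ER with the help of chaperones, disulfide isomerases and lectins. When unfolded proteins build up there, the sensors IRE1, PERK and ATF6 start the unfolded protein response. IRE1 splices the mRNA of Xbp1 so that it encodes an active transcription factor, ATF6 is cut to release another, and PERK slows translation while letting Atf4 mRNA be translated. Together these factors raise the transcription of ER chaperones and of genes for the removal of misfolded proteins. Fibroblasts secrete collagen and other matrix proteins and carry a large folding machinery. Counts per gene do not separate spliced from unspliced Xbp1, and isoforms were not analysed here.

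All 10 are protein-coding genes, placed here by GENCODE vM21 on GRCm38. The lumenal chaperones are Hspa5 (ENSMUSG00000026864) at chr2:34771970-34777547 (plus strand), Hsp90b1 (ENSMUSG00000020048) at chr10:86690209-86705509 (minus strand), and Calr (ENSMUSG00000003814) at chr8:84841850-84846934 (minus strand). The enzyme and co-chaperones of the lumen are Pdia4 (ENSMUSG00000025823) at chr6:47796141-47813430 (minus strand), Dnajb9 (ENSMUSG00000014905) at chr12:44205559-44210326 (minus strand), and Sdf2l1 (ENSMUSG00000022769) at chr16:17130138-17132383 (minus strand). The stress-inducible proteins that can also be secreted are Creld2 (ENSMUSG00000023272) at chr15:88819646-88826683 (plus strand), and Manf (ENSMUSG00000032575) at chr9:106838312-106891979 (minus strand). The membrane protein is Herpud1 (ENSMUSG00000031770) at chr8:94386438-94395377 (plus strand), and the transcription factor is Xbp1 (ENSMUSG00000020484) at chr11:5520659-5525893 (plus strand).

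ATF6 with NF-Y, and XBP1, are known to act through the ER stress response element, in which CCAAT and CCACG stand 9 bases apart, and through the shorter element ERSE-II, in which CCAAT is read on the opposite strand and lies 1 base before CCACG. Both were searched on both strands of the RefSeq promoters (GRCm38.p6), each of 300 bases, from 250 bases before the start of a gene to 50 bases after it. Of the 10 genes, 9 had a promoter in that set, Manf being the other. An element of either kind stood in 5 of these 9 promoters and in 51 of all 32851 promoters, or 0.155%. Both elements are already known from genes of this pathway, to which the 10 belong, so these shares are a description and no test. The longer element alone was in 39 promoters (0.119%) and ERSE-II in 12 (0.0365%). The 6 matches are shown because they are the stretches of these promoters whose letters fit the pathway's known elements, with the fixed letters in capitals and the spacer in lower case, each read on the strand that carries the motif.
Calr element (chr8:84847075-84847093, plus strand): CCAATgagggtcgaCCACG
Creld2 element (chr15:88819520-88819538, minus strand): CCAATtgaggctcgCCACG
Hsp90b1 distal element (chr10:86705638-86705656, minus strand): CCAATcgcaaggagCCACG
Hsp90b1 proximal element (chr10:86705533-86705551, plus strand): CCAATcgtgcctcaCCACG
Hspa5 element (chr2:34772025-34772043, plus strand): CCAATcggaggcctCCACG
Herpud1 element (chr8:94386377-94386387, plus strand): ATTGGgCCACG

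Distances are from the RefSeq start of each gene. The centre of the Hspa5 element lay 56 bases upstream of it, that of Herpud1 47 bases, that of Creld2 117 bases and that of Calr 153 bases. The elements of Hsp90b1 lay 98 and 203 bases upstream, on opposite strands. The RefSeq start of Hspa5 lies 120 bases downstream of the GENCODE start given above, so by GENCODE its element is inside the gene, while the other 5 elements are upstream of both starts. Herpud1 carried ERSE-II and no copy of the longer element. The promoters of Dnajb9, Pdia4 and Sdf2l1 held both CCACG and CCAAT but not at the spacing of the element, and that of Xbp1 held neither in this window. Either short string alone is common, since CCACG stood in 32.8% and CCAAT in 37.4% of all promoters. A match describes letters and not binding, which was not measured. Whole promoters are shown for the main chaperone, Hspa5, and for Herpud1 and Creld2, the members furthest apart between the CBTi-seq groups, 5′ to 3′ on the gene's strand with the element in capitals. The element of Creld2 lies on the other strand and therefore appears there as its reverse complement.
Hspa5 promoter (chr2:34771840-34772139, plus strand): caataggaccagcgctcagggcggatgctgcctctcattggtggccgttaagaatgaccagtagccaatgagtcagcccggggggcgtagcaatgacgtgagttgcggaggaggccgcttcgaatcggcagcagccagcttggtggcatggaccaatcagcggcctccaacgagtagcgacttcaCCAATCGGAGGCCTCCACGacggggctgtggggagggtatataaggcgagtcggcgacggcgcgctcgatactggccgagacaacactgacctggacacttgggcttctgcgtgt
Herpud1 promoter (chr8:94386179-94386478, plus strand): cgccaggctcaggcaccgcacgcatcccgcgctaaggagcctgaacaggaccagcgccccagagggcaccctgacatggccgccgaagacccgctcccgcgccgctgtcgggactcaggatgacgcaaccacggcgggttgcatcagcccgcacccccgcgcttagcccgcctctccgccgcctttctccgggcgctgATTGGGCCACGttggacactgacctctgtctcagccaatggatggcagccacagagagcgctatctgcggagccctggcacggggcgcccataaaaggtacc
Creld2 promoter (chr15:88819396-88819695, plus strand): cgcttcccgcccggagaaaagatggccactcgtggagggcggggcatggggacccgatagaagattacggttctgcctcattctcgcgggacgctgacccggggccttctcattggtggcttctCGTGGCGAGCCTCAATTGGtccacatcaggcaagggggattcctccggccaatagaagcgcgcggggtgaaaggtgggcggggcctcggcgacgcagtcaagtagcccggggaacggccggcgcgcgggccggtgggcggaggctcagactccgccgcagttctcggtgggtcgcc

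The column totals were 153051 to 735871 counts in the knock and 41570 to 846819 in the control columns of CBTi-seq. In the 3' libraries they were 814960 to 1973137 in the one labelled knock and 399393 to 2496457 in the one labelled control. Rrm2, the check of the labels, stood at 350.1 CPM (its counts scaled to all gene counts of the group) in CBTi-seq knock and 480.9 CPM in CBTi-seq control columns. The log2 ratio was -0.46 with a 95% interval of -0.56 to -0.35 for counting error, and 9.98% of the genes at 50 CPM or more had a lower ratio. Its columns overlapped, at 283 to 489 CPM in knock and 356 to 652 CPM in control. Rrm2 went against the labels in the 3' libraries, with 148.1 CPM in the library labelled knock and 39.1 CPM in the library labelled control, a log2 ratio of 1.92 (1.74 to 2.12). Every 3' direction below therefore rests on labels that Rrm2 goes against. Whether the labels of these libraries were exchanged cannot be told from the sources used here, and if they were, each 3' log2 ratio would have the opposite sign. Summed fibroblast markers were at 2525 CPM in CBTi-seq knock and 2584 CPM in CBTi-seq control columns. All 10 of those in the table were detected, and Thy1 had no row. Summed over 11 markers, they were at 3197 CPM in the 3' library labelled knock and 1835 CPM in the one labelled control. Most of each fibroblast sum came from Vim, Sparc and S100a4. Single markers went both ways in CBTi-seq. Vim was at 1071 CPM in knock and 976 CPM in control columns, and Col1a2 at 42.2 and 101 CPM. Macrophage markers reached 35.9 CPM in knock and 63.4 CPM in control columns, with Ptprc and Adgre1 absent, and, with Ptprc at 0, 169.4 CPM in the 3' library labelled knock and 91.5 CPM in the one labelled control. Epithelial markers were at 0.855 CPM in knock and 1.29 CPM in control columns of CBTi-seq, with no row for Cdh1 or Krt18. With Krt18 at 0, they were at 118.2 CPM in the 3' library labelled knock and 194.8 CPM in the one labelled control. Most of the macrophage and epithelial 3' sums came from a single gene each. Cd68 was at 150.0 CPM labelled knock and 77.8 CPM labelled control, and Cdh1 at 110.5 and 188.1 CPM. None of the 4 endothelial markers had a row in CBTi-seq, and their sum was 33.4 CPM in the 3' library labelled knock and 32.3 CPM in the one labelled control. What part these levels have in the results was not tested.

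All 10 ER genes had a higher level in the CBTi-seq knock columns than in the control columns. The median of their log2 ratios was 0.37, against -0.01 over the 5243 genes at 50 CPM or more, of which 49.1% were higher in knock. For 9 of the 10, the exact 95% interval of the ratio lay above 0, as it did for 26.1% of the genes. The interval covers counting error only and not the spread between columns. Herpud1 and Creld2 were at least 1.5-fold higher, as were 2.37% of the genes, and no member was at least 1.5-fold lower, where 5.38% of the genes were. At a 2-fold limit no member was called, where 0.343% of the genes were higher and 0.668% lower. The 10 genes together took 0.775% of the counts of the knock and 0.594% of those of the control columns. In single columns this share lay between 0.529% and 1.19% in knock and between 0.439% and 0.794% in control, so the groups overlapped. Both groups are columns of 1 sample and columns are not replicates, so none of these differences was tested. The 10 genes were also chosen with earlier results of these data known, so their counts beside all genes are a description.

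Herpud1, an ER membrane protein with a ubiquitin-like domain that takes part in ER-associated degradation, was the member furthest apart. Its columns ran from 270.0 CPM through a median of 421 to 652 in knock, and from 168 through 265 to 365 in control. All columns but 1 of the knock group (9 of 10) stood above every control column, and knock column 2 was the exception at 270.0 CPM. The summed level was 451 CPM in knock (429 to 474) and 260.0 CPM in control (244 to 277). That is 1.74-fold higher in knock, a log2 ratio of 0.80 (0.68 to 0.91), and 99.3% of the genes tested had a lower ratio. An annotated antisense gene, Gm15890, shares 535 bases with Herpud1 on the opposite strand, and the sources used here do not say whether counting used strand.

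Creld2, a stress-inducible ER protein with EGF-like domains, followed with 825 CPM in knock (795 to 856) and 541 CPM in control (518 to 565). Its knock columns lay between 586 and 1111 CPM with a median of 848, and its control columns between 409 and 737 CPM with a median of 517. Here too 9 of the 10 knock columns exceeded every control column, and knock column 10, the deepest of its group, was the one that did not. The ratio was 1.52-fold (1.44 to 1.61), a log2 ratio of 0.61 (0.53 to 0.69). It lies close to the 1.5-fold limit. Without control column 9, or without knock column 3, 6 or 9, only 1 member passed that limit, and without knock column 10 there were 3.

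Manf, an ER protein that is also secreted as a neurotrophic factor, had 485 to 1013 CPM in knock columns (median 701) and 289 to 643 CPM in control columns (median 514). Again 9 of the 10 knock columns stood above every control column. Its summed level was 686 CPM in knock and 510 CPM in control, a log2 ratio of 0.43 (0.34 to 0.52). The annotated gene shares 6511 bases with Rbm15b on the same strand and 42681 bases with Dcaf1 on the opposite strand, so its counts are uncertain where the genes share bases. Sdf2l1, which forms part of a BiP chaperone complex in the ER lumen, spanned 450 to 725 CPM in knock columns and 217 to 580 CPM in control columns. Of its knock columns 7 stood above every control column, and all 10 above the control median of 409 CPM. The log2 ratio was 0.52 (0.42 to 0.61), from 577 CPM in knock and 403 CPM in control.

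**Figure D1:**
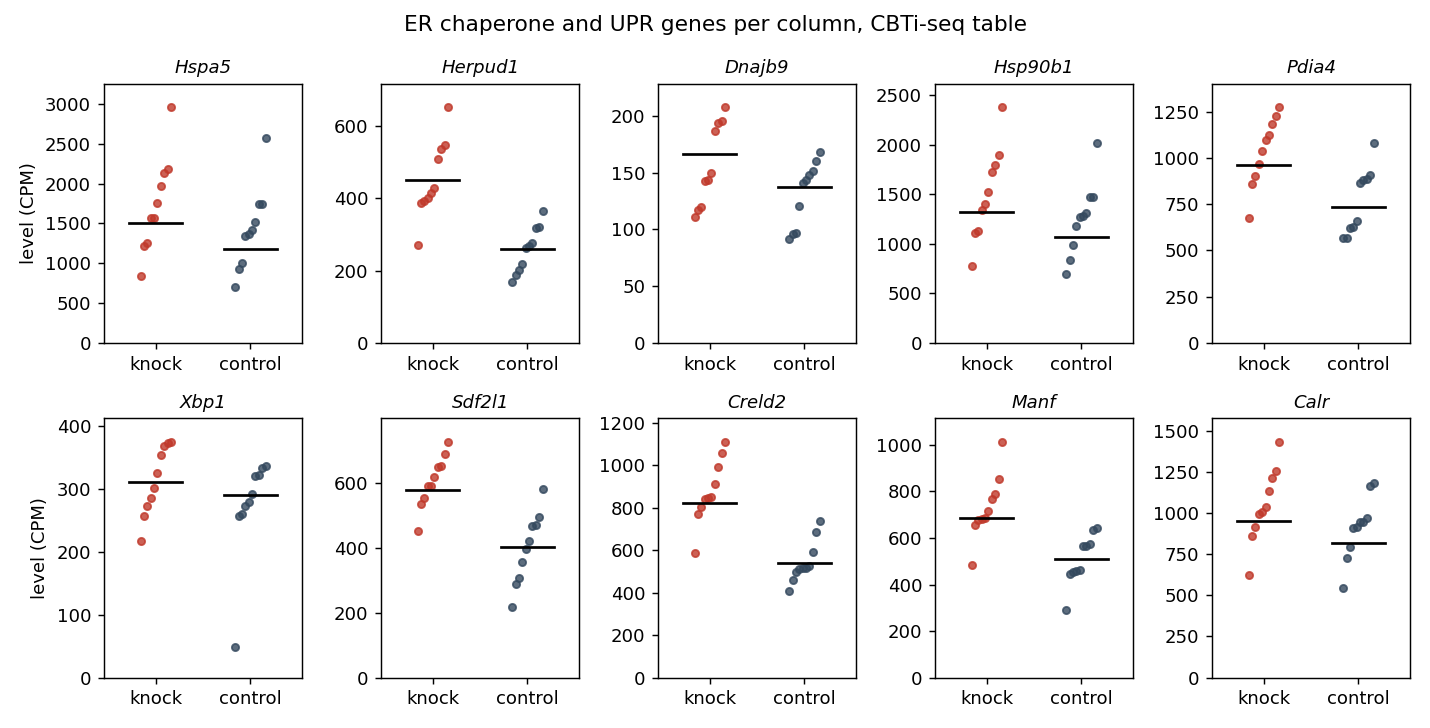
Level (CPM) of the 10 genes in each CBTi-seq column, with the 10 knock columns left and the 10 control columns right; points are columns and the black line is the level of the summed counts. The knock and control columns overlap for every gene, with 9 of 10 knock columns above all control columns for Herpud1, Creld2 and Manf.

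Among the main lumenal chaperones, Hspa5, the Hsp70 of the ER also called BiP, had the highest counts. Its columns ran from 834 to 2960 CPM in knock, with a median of 1661, and from 699 to 2574 CPM in control, with a median of 1391. The summed levels of 1502 CPM in knock and 1179 CPM in control gave a log2 ratio of 0.35 (0.29 to 0.41), yet only 1 knock column stood above every control column. Hsp90b1, the ER form of Hsp90 also called GRP94, lay at 1318 CPM in knock and 1069 CPM in control, with a log2 ratio of 0.30 (0.24 to 0.36). Its columns ran from 779 to 2378 CPM in knock and from 692 to 2021 CPM in control, and it shares 4598 bases with 1810014B01Rik on the opposite strand and 977 and 133 bases with Gm15344 and Gm25745 on the same strand. Calr, the calcium-binding lectin chaperone calreticulin, had 950.4 CPM in knock and 816 CPM in control, with columns of 625.1 to 1431 CPM in knock and 547 to 1179 CPM in control. Its log2 ratio was 0.22 (0.15 to 0.29). These 3 genes depended more on single columns than the rest. Without control column 9, the deepest, the log2 ratios were 0.19 for Hspa5, 0.17 for Hsp90b1 and 0.09 for Calr. Without knock column 10 they were 0.51, 0.45 and 0.35.

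Pdia4, a protein disulfide isomerase, stood at 961 CPM in knock and 733 CPM in control, a log2 ratio of 0.39 (0.32 to 0.46). Its columns covered 674 to 1274 CPM in knock and 565 to 1083 CPM in control, and 9 of the 10 knock columns exceeded the control median of 761 CPM. Dnajb9, a J-domain partner of BiP that restrains IRE1, was the least abundant of the 10 in counts. It had 111 to 208 CPM in knock columns and 91.2 to 169 CPM in control columns, and a log2 ratio of 0.28 (0.11 to 0.45). The medians of its columns were close, at 147 CPM in knock and 142 CPM in control.

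Xbp1 was the member least apart. Its level was 311 CPM in knock and 290.3 CPM in control, and the interval of its log2 ratio, 0.10 (-0.02 to 0.22), included 0. The knock columns ran from 217 to 374 CPM with a median of 313. The control columns ran from 48.1 to 337 CPM with a median of 285. The lowest control value belongs to control column 1, the shallowest of all with 41570 counts, where Xbp1 had 2 counts.

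A limit on counts touched the most abundant of these genes in CBTi-seq. No gene had more than 638 counts in any CBTi-seq column, although column totals differed from 41570 to 846819. Hspa5 reached at most 614 counts and Hsp90b1 586, close to that maximum, while Dnajb9 reached 144 and Xbp1 247. In knock column 9, with a total of 153051, Hspa5 had 453 counts, and in knock column 10, with a total of 735871, it had 614. Its level in CPM therefore came out at 2960 in the first of these columns and at 834 in the other. Over the 10 knock columns, the correlation of log2 level with log2 column total was -0.99 for Hspa5, -0.99 for Hsp90b1 and -0.97 for Calr, and over the 10 control columns -0.91, -0.90 and -0.80. Pdia4, which reached 496 counts, had -0.85 in knock and -0.06 in control columns. Creld2 had -0.76 in knock and 0.30 in control, Manf -0.77 and 0.51, and Sdf2l1 -0.74 and 0.48. The remaining members had no negative value, with 0.01 in knock and 0.36 in control for Herpud1, 0.07 and 0.83 for Xbp1, and 0.61 and 0.45 for Dnajb9. When counts were corrected for collisions in a pool of 700 molecular identifiers, a size picked after the maximum was seen, the median log2 ratio of the 10 genes was 0.46. With the larger pool first planned it was 0.42.

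**Figure D2:**
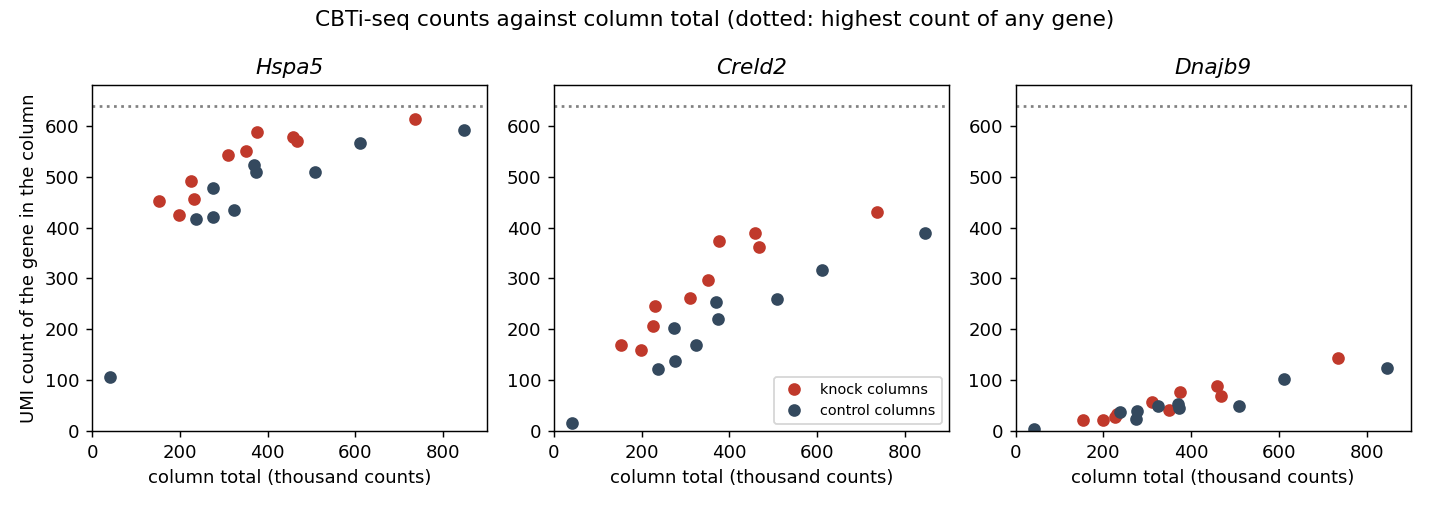
UMI counts of Hspa5, Creld2 and Dnajb9 in each CBTi-seq column against the column's total count, for knock and control columns, with a dotted line at 638, the highest count of any gene in any column. Hspa5 flattens towards that line and reaches 614 counts, while Dnajb9 goes on with the total and stays at or below 144.

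By the labels of the 3' libraries, most of the 10 genes differed in the other direction. The library labelled knock had lower levels than the library labelled control for 9 of them and a higher level for Calr, while 42.3% of the 2826 genes at 50 CPM or more were lower and 57.7% higher. The median of the 10 log2 ratios was -0.50, against 0.14 over all these genes. All 10, Calr included, lay below that median of all genes. With the labels exchanged, the same values would put 9 of the 10 higher in knock, with a median of 0.50. The interval was below 0 for 8 of the 10, as for 35.7% of the genes, and above 0 for Calr, as for 50.2%. Dnajb9, Pdia4, Manf and Creld2 were at least 1.5-fold lower in the library labelled knock, where 13.7% of the genes were, and no member was at least 1.5-fold higher, where 26% were. Of all 3' counts, the 10 genes made up 1.35% in the library labelled knock and 1.74% in the library labelled control. Per column that share was 1.31% to 1.40% in the library labelled knock and 1.67% to 1.82% in the one labelled control, with no overlap.

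The 3' balance of higher and lower genes depends on the scaling. With TMM factors 20.5% of the genes were at least 1.5-fold higher and 20.1% lower, with median-of-ratios factors 19.8% and 21.3%, and with totals that leave out mitochondrial and ribosomal protein genes 22.0% and 19.7%. The median of all genes was then -0.01, -0.03 and 0.01 in place of 0.14. Under each of these 3 scalings, all 10 members were lower in the library labelled knock, including Calr at -0.048, -0.068 and -0.041, and 6 were at least 1.5-fold lower.

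Dnajb9 differed most between the 3' libraries. Its columns held 106 to 149 CPM in the library labelled knock, with a median of 124, and 232 to 279 CPM in the library labelled control, with a median of 252. The columns of the libraries did not overlap. The summed levels, 123 CPM in the library labelled knock and 261 CPM in the one labelled control, gave a log2 ratio of -1.09 (-1.20 to -0.98), the only member past 2-fold, as were 4.53% of the genes in that direction. Pdia4 came next with 375 CPM and 731 CPM in the libraries labelled knock and control, a log2 ratio of -0.96 (-1.02 to -0.90). Its columns ran from 331 to 439 CPM in the library labelled knock and from 634 to 919 CPM in the library labelled control.

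Manf stood at 1439 CPM in the library labelled knock and 2433 CPM in the library labelled control, a log2 ratio of -0.76 (-0.79 to -0.73). Its columns ran from 1276 to 1540 CPM in the first and from 2245 to 2716 CPM in the second. Creld2 had 1145 CPM in the library labelled knock and 1764 CPM in the one labelled control, with columns of 982 to 1289 CPM and 1626 to 2078 CPM, and a log2 ratio of -0.62 (-0.66 to -0.59). Both genes were thus clear of overlap in the 3' columns, as they nearly were in CBTi-seq, in the opposite direction by label. Sdf2l1 and Herpud1 also had columns apart. Sdf2l1 had 167 to 256 CPM in the library labelled knock and 258 to 324 CPM in the library labelled control, a log2 ratio of -0.51 (-0.60 to -0.42). Herpud1 had 478 to 531 CPM and 669 to 796 CPM in the libraries labelled knock and control, a log2 ratio of -0.48 (-0.54 to -0.43).

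Hspa5 had columns of 5052 to 5646 CPM in the library labelled knock and 6459 to 7340 CPM in the library labelled control. It was thus apart in every column, at a log2 ratio of -0.36 (-0.37 to -0.34). In all, the columns were apart for 7 of the 10 genes, each lower in the library labelled knock, as for 11.7% of the genes in that direction and 24.6% in the other. In CBTi-seq no member had its columns apart, where 0.0763% of the genes had every knock column higher and 0.114% every knock column lower. Xbp1 was at 410.0 CPM in the library labelled knock and 515 CPM in the library labelled control, a log2 ratio of -0.33 (-0.40 to -0.26), and its highest column labelled knock, at 472 CPM, passed the lowest labelled control, at 467 CPM.

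Hsp90b1 and Calr were the members least apart in the 3' libraries. Hsp90b1 had 2049 CPM in the library labelled knock and 2073 CPM in the library labelled control, a log2 ratio of -0.02 (-0.05 to 0.01), which was 0.0070 without control column 1 and 0.00088 without knock column 3. Calr had 1843 CPM in the library labelled knock and 1731 CPM in the one labelled control, a log2 ratio of 0.09 (0.06 to 0.12). It was below 0 under the 3 scalings given above, but not with the mean of column CPM or with thinning to 50000 counts. For both genes the columns of the libraries overlapped. Columns of a 3' library were close to each other, with a spread beyond counting error of 0 to 15.9% over the 10 genes in the library labelled knock and 0 to 12.6% in the one labelled control. In CBTi-seq this spread was 10.9% to 34.3% in knock and 9.88% to 36.3% in control. Close columns of 1 library are no check of the difference between libraries.

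**Figure D3:**
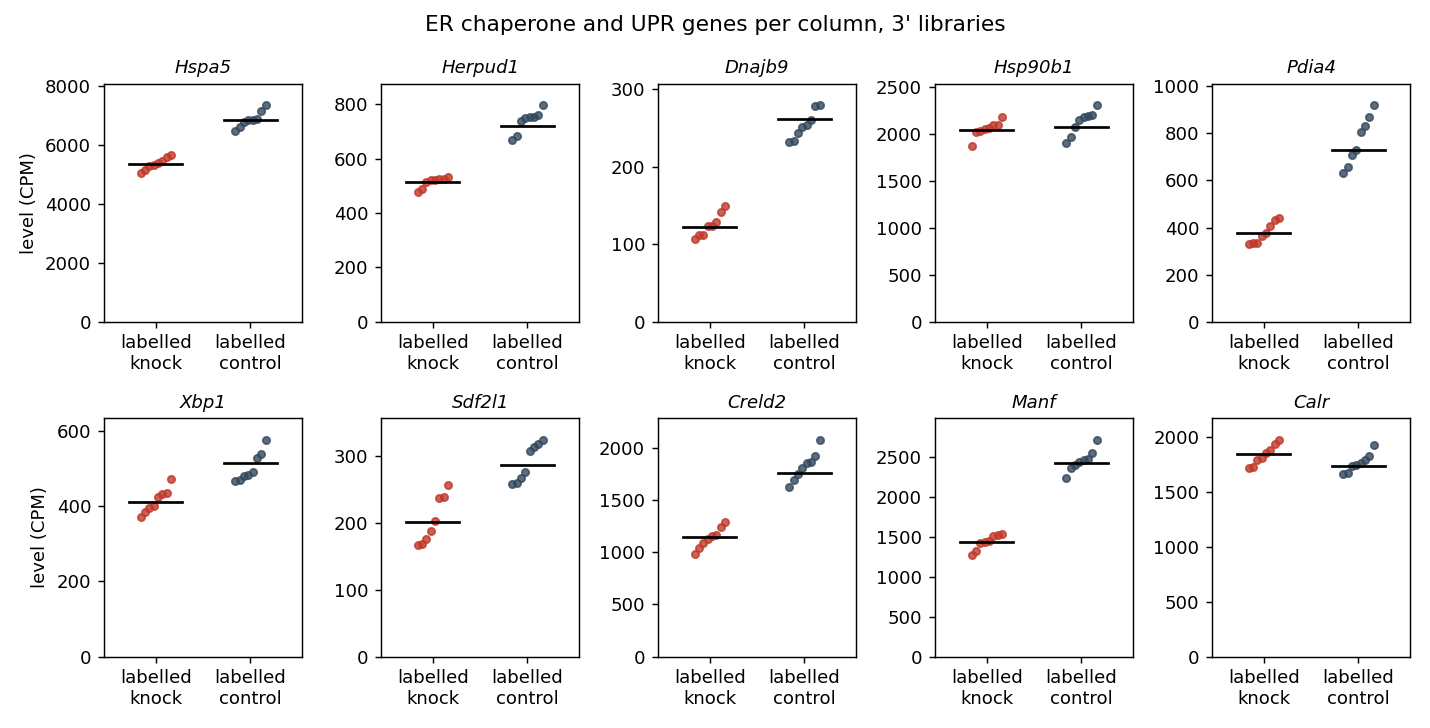
Level (CPM) of the 10 genes in each 3' column, with the 8 columns of the library labelled knock left and the 8 of the library labelled control right; points are columns and the black line is the level of the summed counts. The columns are apart for 7 genes, all lower in the library labelled knock, and overlap for Hsp90b1, Xbp1 and Calr.

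**Figure D4:**
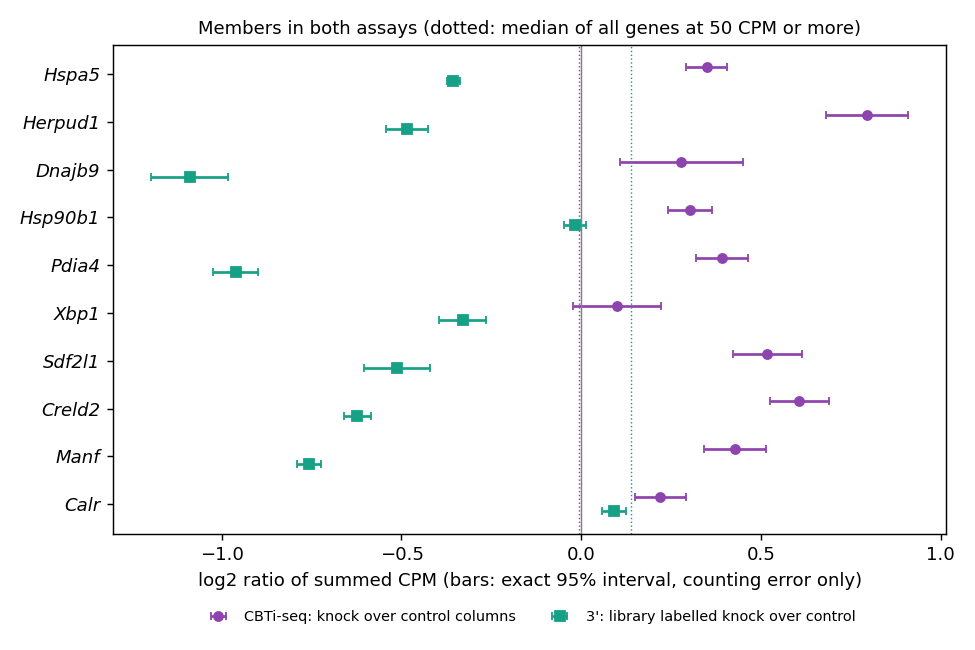
Log2 ratio of knock over control for each of the 10 genes in CBTi-seq and in the 3' libraries by their labels, with exact 95% intervals for counting error and dotted lines at the median of all genes of each assay. Every CBTi-seq ratio is above 0, from 0.10 for Xbp1 to 0.80 for Herpud1, and the 3' ratios run from -1.09 for Dnajb9 to 0.09 for Calr.

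The other genes of the pathway were counted where they averaged 20 CPM or more. The background was 8391 genes at that level in CBTi-seq, of which 44.7% were higher and 55.3% lower in knock, 3.54% at least 1.5-fold higher and 10.2% at least 1.5-fold lower. Their median log2 ratio stood at -0.05. Between the 3' libraries it was 5701 genes, of which 58.8% were higher and 41.2% lower in the one labelled knock, 30.5% at least 1.5-fold higher and 15% at least 1.5-fold lower. The median of these was 0.18. The 3 other scalings lower each 3' log2 ratio by 0.13 to 0.16, and over the same genes no 3' list median changed its sign by this except that of the sensors. The lists were picked with earlier results of these data known, so their counts are descriptions and were not tested.

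Other ER chaperones and folding enzymes were higher in CBTi-seq knock for 16 of 22 genes, with a median log2 ratio of 0.14. Dnajc3, a BiP co-chaperone that inhibits PERK, was at 283 CPM in knock and 214 CPM in control, a log2 ratio of 0.40 (0.27 to 0.53). Pdia3, a disulfide isomerase that works with calreticulin, was at 886 CPM in knock and 693 CPM in control, a log2 ratio of 0.35 (0.28 to 0.43), and the prolyl isomerase Ppib had a log2 ratio of 0.33 (0.24 to 0.42). Ero1l, the oxidase that recharges disulfide isomerases and is also a known hypoxia-inducible gene, was lower, at 186 CPM in knock and 366 CPM in control, a log2 ratio of -0.98 (-1.11 to -0.84). Between the 3' libraries, 14 of 20 genes were lower in the one labelled knock, with a median of -0.20. Ero1l was again lowest at -2.40 (-2.56 to -2.25), with 46.3 CPM in the library labelled knock and 245 CPM in the library labelled control. Hyou1, an Hsp70-like exchange factor for BiP, was at -1.17 (-1.31 to -1.04), Erp44, which retains immature proteins, at -1.16 (-1.26 to -1.05), and Dnajc3 at -0.69 (-0.78 to -0.60). By label Ero1l was thus lower in knock in both assays, but with the 3' labels exchanged its 3' log2 ratio would be 2.40.

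Genes of the PERK and ATF4 arm stood on both sides. In CBTi-seq 8 of 11 were higher in knock, with a median of 0.23. Chac1, a glutathione-degrading enzyme, was at 176 CPM in knock and 90.1 CPM in control. Ddit3, the transcription factor CHOP, was at 276 CPM in knock and 149 CPM in control, and Sesn2, a stress-inducible regulator of mTORC1, had a log2 ratio of 0.63 (0.41 to 0.85). Ddit4, another inhibitor of mTORC1 that hypoxia also induces, was lower at -0.70 (-0.98 to -0.42). Of the 8 measured in the 3' libraries, 6 were lower in the one labelled knock, with a median of -0.54. Ddit3 was at 107 CPM in the library labelled knock and 195 CPM in the library labelled control, a log2 ratio of -0.87 (-0.99 to -0.75). Trib3, a pseudokinase induced by CHOP, was at -0.72 (-0.82 to -0.61) and Atf4 itself at -0.36 (-0.43 to -0.29).

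Of the sensors and the proteases and ligase that serve them, 3 of 7 were higher in CBTi-seq knock, and the median was -0.27. Atf6 was at 70.7 CPM in knock and 94.8 CPM in control, a log2 ratio of -0.42 (-0.66 to -0.19). Rtcb, the ligase that joins the spliced Xbp1 mRNA, was at 185 CPM in knock and 153 CPM in control, a log2 ratio of 0.28 (0.12 to 0.44). Only 3 sensor genes of the 3' libraries reached 20 CPM, with 2 higher in the one labelled knock and a median of 0.01, which was -0.13 with TMM factors.

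Genes of ER-associated degradation extract misfolded proteins from the ER for the proteasome. In CBTi-seq 12 of 19 were higher in knock with a median of 0.08, and none was 1.5-fold apart. Syvn1, the ubiquitin ligase HRD1, and its partner Sel1l had log2 ratios of 0.44 (0.23 to 0.66) and 0.37 (0.21 to 0.54), while Erlec1, a lectin of the same machinery, was at -0.49 (-0.79 to -0.20). By 3' label, 9 of 15 were lower in the library labelled knock, with a median of -0.16. Selenok, with 117 CPM in the library labelled knock and 339 CPM in the library labelled control, was at -1.54 (-1.64 to -1.43) and Selenos at -1.47 (-1.53 to -1.40). Both encode selenoproteins of the ER membrane. Nploc4, a cofactor of the segregase VCP, was at 1.35 (1.12 to 1.57).

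The entry machinery (translocon, signal peptidase and oligosaccharyltransferase) was higher in CBTi-seq knock for 20 of 24 genes, with a median of 0.17, none of them 1.5-fold apart. Ssr4, a subunit of the translocon-associated complex, was at 408 CPM in knock and 304 CPM in control, a log2 ratio of 0.43 (0.31 to 0.54), and Rpn1, a subunit of oligosaccharyltransferase, was at 0.34 (0.24 to 0.44). Between the 3' libraries, 18 of these 24 genes were lower in the one labelled knock, with a median of -0.42, and 10 were at least 1.5-fold lower, where 15% of all genes at that level were. Spcs1, a subunit of signal peptidase, was at 92.2 CPM in the library labelled knock and 256 CPM in the library labelled control, a log2 ratio of -1.47 (-1.59 to -1.36). Ssr3 was at -1.48 (-1.64 to -1.32) and Serp1 at -1.34 (-1.43 to -1.25). For retrieval and ER to Golgi transport, 11 of 13 genes were higher in CBTi-seq knock with a median of 0.24. By 3' label, 8 of 13 were lower in the library labelled knock with a median of -0.19. Sar1b, a GTPase that builds the vesicle coat, was at 0.42 (0.25 to 0.59) in CBTi-seq, and Lman1, a cargo receptor, at -0.39 (-0.58 to -0.20).

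The paralogs of the members hold cytosolic and mitochondrial chaperones as well as proteins of the ER. All 9 measured paralogs were higher in CBTi-seq knock, with a median of 0.15. The mitochondrial Trap1 was furthest apart of these at 0.55 (0.29 to 0.81), and the cytosolic Hsp90ab1 was at 0.19 (0.13 to 0.25). In the 3' libraries 6 of 8 were higher in the one labelled knock, with a median of 0.65. The cytosolic Hsp90aa1 was at 481 CPM in the library labelled knock and 209 CPM in the library labelled control, a log2 ratio of 1.20 (1.12 to 1.29), where the ER form Hsp90b1 was at -0.02. Hsp90ab1 was at 1.08 (1.03 to 1.13), and Hspa8, the cytosolic relative of Hspa5, at 0.37 (0.32 to 0.43). The ER-resident Dnajb11 was at -0.21 (-0.28 to -0.14). Of the other ER paralogs, named after their values were seen, Sdf2 was at 1.17 (0.83 to 1.53), Pdia3 at 0.05 (-0.004 to 0.10) and Canx at -0.04 (-0.12 to 0.03). This list shares Pdia3, Dnajb11 and Canx with the list of folding enzymes, and the difference between paralogs and members was not tested.

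**Figure D5:**
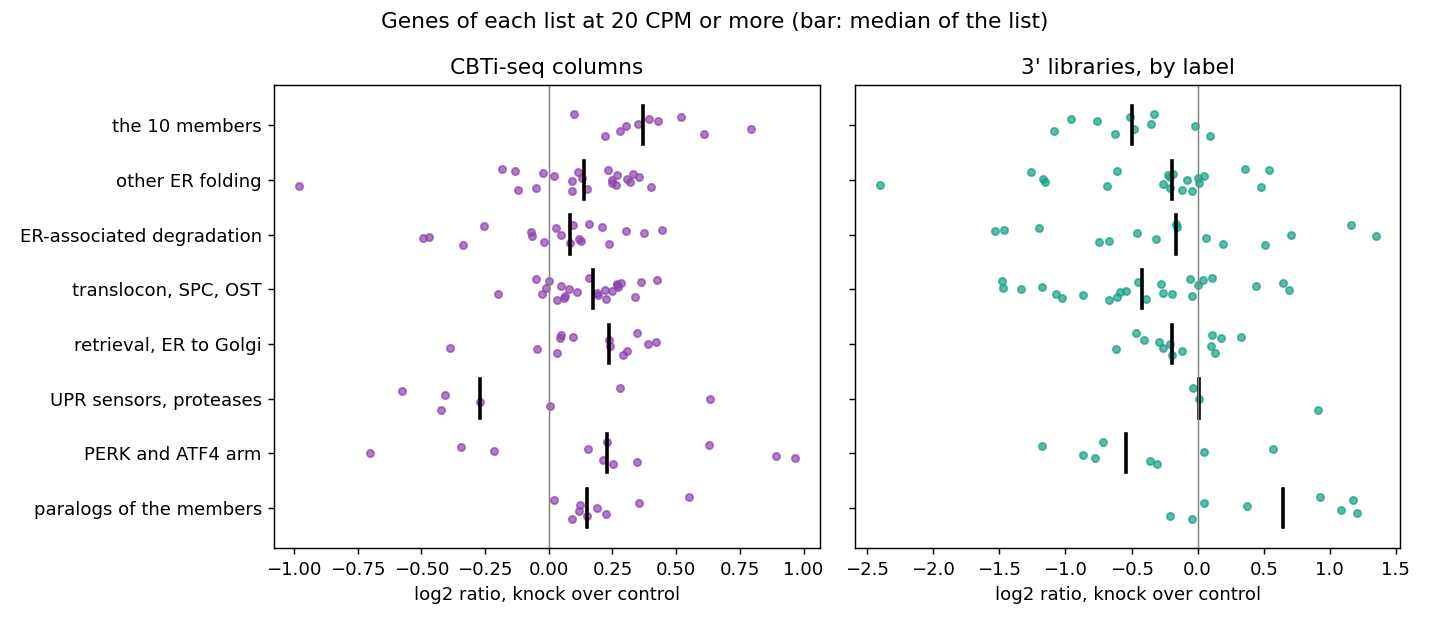
Log2 ratio of knock over control for each gene at 20 CPM or more of the 10 genes described and of 7 lists, in CBTi-seq on the left and between the 3' libraries by their labels on the right, on axes of different width; black bars are medians. The 10 genes have the highest median of the lists in CBTi-seq, 0.37, and a median of -0.50 in the 3' libraries, where paralogs stand at 0.65. Genes and lists were chosen with earlier results of these data known.

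Genes outside the 10 whose promoters hold either element were looked up after values had been seen. There were 44 of them, and 14 reached 20 CPM in CBTi-seq, where 9 were higher and 5 lower in knock with a median log2 ratio of 0.19. Of all genes at that level, 44.7% were higher. In the 3' libraries 10 were measured, of which 9 were lower and 1 higher in the one labelled knock, with a median of -0.20. There 41.2% of all genes at that level were lower. Those with known roles in the ER or the secretory pathway had log2 ratios in CBTi-seq of 0.44 for Syvn1, 0.40 for Dnajc3, 0.40 for Krtcap2, a subunit of oligosaccharyltransferase, 0.31 for Alg12, a mannosyltransferase of N-glycan assembly, 0.27 for the disulfide isomerase Pdia6, 0.15 for Dnajb11, 0.09 for Canx, the membrane lectin calnexin, and -0.09 for Nucb1, a calcium-binding protein of the Golgi. The intervals of Alg12 (-0.01 to 0.64) and Nucb1 (-0.20 to 0.01) included 0. The others measured were at 0.26 for Hnrnpa3, 0.22 for Rcl1, -0.03 for Lgalsl, -0.11 for Lrif1, -0.21 for Rbm39 and -0.65 for Pan2. In the 3' libraries the ER and secretory genes were at -0.69 for Dnajc3, -0.28 for Krtcap2, -0.21 for Dnajb11, -0.18 for Pdia6 and -0.04 for Canx. Syvn1, Alg12 and Nucb1 were under 20 CPM there. The others measured there were at -0.06 for Acacb, -0.15 for Rbm39, -0.31 for Lgalsl, -0.41 for Rcl1 and 0.79 for Lrif1. Among the members themselves, those with an element ran from 0.22 for Calr to 0.80 for Herpud1 in CBTi-seq, and those without one from 0.10 for Xbp1 to 0.52 for Sdf2l1, so the ranges overlapped.

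Most pairs of members, but not those of Dnajb9, were positively correlated across CBTi-seq columns. Values of log2(CPM + 1) were first centred within the knock and the control group. The 45 pairs of members then had a median Pearson correlation of 0.42 over the 20 columns, and 33 pairs (73.3%) were above 0. The median over all pairs of 2793 genes at 100 CPM or more was 0.09, with 57.1% of the pairs above 0. Dnajb9 was below 0 with every other member except Herpud1 and Xbp1. The other pairs below 0 were Xbp1 with Hspa5, Hsp90b1 and Calr, and Herpud1 with Hspa5 and Hsp90b1. The members' correlations ran from -0.52, for Dnajb9 with Hsp90b1, to 0.99, for Hspa5 with Hsp90b1. That last pair also shares the limit on counts. With the dependence on the column total removed, the median was 0.75, against 0.06 for all genes. Of the 45 pairs, 39 were then above 0, as were 2181111 of the 3899028 pairs of all genes. Every member pair then below 0 included Dnajb9. Without control column 1, the median was 0.45 over 19 columns, against 0.01. These points share a library, a depth and the same total, so the correlations describe the columns and were not tested.

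The genes most like the mean of the 10 members over these columns, out of 2783 others, were Pdia3 and Pdia6 with a correlation of 0.87 each. Both are ER disulfide isomerases. Next came Cd63, a tetraspanin of late endosomes, at 0.87 and Cox6a1, a subunit of cytochrome c oxidase, at 0.85. The ribosomal protein Rpl27 was at 0.85, the mitochondrial phosphate carrier Slc25a3 at 0.84, the copper chaperone Atox1 at 0.83 and the ribosomal protein Rpl18 at 0.82. In the comparison of groups these genes did not all go with the members, since Cd63 had log2 ratios of 0.06 in CBTi-seq and 0.30 in the 3' libraries, and Atox1 of 0.36 and 0.79.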

How the data were processed

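The deposited values are raw counts, whole numbers for each gene and column. Those of CBTi-seq are UMIs (molecular identifiers) by the table's name, and the sources used here do not say if the 3' counts are reads or UMIs. The submitters' processing notes name STAR 2.7.11b, FastQC and Picard, and both a mouse (GRCm38) and a human (GRCh38) build without saying what each was for. No source used here names the counter, its strand setting or its filters. Per the labels' protocols, cDNA was amplified over 20 PCR cycles, and reads that are not UMIs are not independent molecules.

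Of the Ensembl IDs of the 3' tables, 55141 matched GENCODE vM21 (GRCm38), and 261 did not, with 0.0329% of the counts labelled knock and 0.0194% of those labelled control. A reporter row with 0 counts was left out. Dates stood in place of 21 CBTi-seq symbols, which took 0.206% of the counts. Coordinates are 1-based and promoters come from RefSeq (GRCm38.p6). No filter on columns and no doublet caller was applied. Cells were picked singly per the labels' protocols, but whether each column is 1 cell is not stated.

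The columns of a group were added up, and CPM were taken on the sum of all genes. Levels have exact Poisson 95% intervals and ratios exact conditional (Clopper-Pearson) 95% intervals, which cover counting error only. Over the sums, 3 counts are 0.855 CPM in CBTi-seq knock, 0.777 in CBTi-seq control, 0.327 in the 3' library labelled knock and 0.424 in the one labelled control. With 1 sample per group there was no test and no replicate check. Levels were not compared between the tables of the 2 assays, which were scaled separately. The spread beyond counting is the coefficient of variation of column CPM after the part due to counting is taken off.

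The members and all lists were chosen with earlier results of these data known. Named were the 10 members and Rrm2, up to 4 genes per list and assay with the largest log2 ratio in size at 50 CPM or more on average, and the 8 genes most like the mean of the members at 100 CPM or more, with a pseudocount of 1. Genes with a promoter element outside this rule were named after their values were seen.

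Alternatives were TMM factors (edgeR 4.0.16) and median-of-ratios factors (DESeq2 1.42.0), leaving mitochondrial and ribosomal protein genes out of the totals, the mean of column CPM, thinning to 50000 counts (20 draws), UMI collision correction, a 2-fold limit and leaving out each column. Software was Python 3.11.15 with scipy 1.17.1, pandas 2.3.3, numpy 2.4.6 and matplotlib 3.10.9, and R 4.3.3. On simulated counts with 200 altered genes, the interval held the true ratio for 96% in CBTi-seq (5244 genes) and 95% in the 3' tables (2862 genes), which checks the calculation and not the variation between columns.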

Additional observations from a re-analysis of the deposited data

Results flagged for a closer look

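In CBTi-seq, Xbp1 stood at 48.1 CPM in control column 1, far below the next control column at 257 CPM. That column has 41570 counts, of which 2 were of Xbp1. Of 40 groups of columns examined this was the 1 with an extreme value. The groups share columns, and how many such values chance would give was not tested.

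For 7 of the 10 genes the intervals of the CBTi-seq and the 3' log2 ratios, by the 3' labels, lay wholly on opposite sides of 0. Xbp1 (0.10 in CBTi-seq, -0.33 in 3') and Hsp90b1 (0.30 and -0.02) also had opposite signs. The CBTi-seq interval of Xbp1 and the 3' interval of Hsp90b1 included 0, so they are not among the 7. The log2 ratio in CBTi-seq minus that in the 3' libraries was 0.70 for Hspa5, 1.28 for Herpud1, 1.37 for Dnajb9, 1.35 for Pdia4, 1.03 for Sdf2l1, 1.23 for Creld2 and 1.19 for Manf. With 1 sample per group the difference was not tested. Rrm2, at -0.46 in CBTi-seq and 1.92 in the 3' libraries, was opposite as well, and went against the 3' labels. If the 3' labels were exchanged, the same differences would be -0.0068 for Hspa5, 0.31 for Herpud1, -0.81 for Dnajb9, -0.57 for Pdia4, 0.0050 for Sdf2l1, -0.016 for Creld2 and -0.33 for Manf. These 7 were picked for opposite sides, so with the 3' sign turned they share a sign by construction and are no check of the labels. For the members left over by that rule, the difference would be 0.31 for Calr, 0.29 for Hsp90b1 and -0.23 for Xbp1. For Ero1l, named for the size of its ratio, it would be -3.38. Being selected by their values, these genes are no check of the labels either. For Rrm2 the difference would be 1.47. An exchange was not tested.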

How the results depend on the processing

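All 10 members stayed higher in CBTi-seq knock under each of the 8 other scalings and corrections tried and without any single column. Their median log2 ratio was 0.46 with UMI collisions corrected for a pool of 700 and 0.49 with that correction and the mean of column CPM, both chosen after seeing the data. It ran from 0.31 without control column 9 to 0.51 without knock column 10, and the count of members at least 1.5-fold apart from 1 to 3. With a 2-fold limit the counts were 0 in CBTi-seq and 1 in the 3' libraries. The 3' median was -0.64 with TMM factors, -0.66 with median-of-ratios factors and -0.63 with totals that leave out mitochondrial and ribosomal protein genes. Leaving out single columns gave -0.54 to -0.47, and 4 members in each case. The 3' log2 ratio of Calr turned to -0.048 with TMM factors, -0.068 with median-of-ratios factors and -0.041 with those totals, and the cause was not tested. No paired analysis was possible because the labels carry no replicate numbers and each group is 1 sample. In CBTi-seq the limit on UMI counts comes closest for Hspa5 and Hsp90b1, and the level was also lower at higher column totals in the knock columns of Calr, Pdia4, Creld2, Manf and Sdf2l1, while control column 1 is too shallow for Dnajb9 and Xbp1, with 4 and 2 counts.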
